A study of Mus musculus with 9 samples.

Results

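High glucose was compared with no treatment in a cultured mouse podocyte line, across all genes with enough counts to test. The line is labelled MCP5, with a wild-type genotype, and the labels give no transgene or deletion. RNA sequencing covered 3 untreated control libraries, 3 libraries at 50 mmol/L glucose and 3 libraries at 400 µg/mL advanced glycation end products (AGEs, proteins modified by sugars). Members were the 17680 genes, of 55385 in the deposited table, that passed a filter on low counts, and 6 of the 9 libraries carried the contrast. The AGEs libraries entered the same fit for the estimate of spread and are quoted beside single genes. The sources used here do not give the duration of treatment or the glucose level of the control medium, and no osmotic control was analysed here. The titles number the libraries 1 to 3 in each group without naming separate cultures. A p-value therefore reflects the scatter among these libraries alone, and that scatter may be technical.

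Podocytes are the octopus-shaped epithelial cells that wrap the glomerular capillaries and hold the outer side of the filtration barrier. Cells sense glucose partly through MondoA and ChREBP, transcription factors that bind carbohydrate response elements when glucose phosphates accumulate and that switch on Txnip and its arrestin relatives. Amino acid supply and protein folding are sensed through the kinases that phosphorylate eIF2alpha, and the transcription factor ATF4 then induces amino acid synthesis, amino acid import and tRNA charging. Genes of endoplasmic reticulum (ER) stress and cytosolic ribosomal proteins fell in high glucose. They are named here only for context: 30 of 32 and 78 of 82 were called lower, with none higher. What follows concerns the other genes.

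Of the defining podocyte genes, the transcription factor genes Foxc2 and Lmx1b had 0 counts in all 9 libraries, as did Cdkn1c and Trpc6. Of 24 podocyte markers listed, 16 had enough counts to test. Total counts ranged from 62193640 to 70705840 in control and from 46284878 to 77242281 in high glucose.

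High glucose changed genes across the whole expressed range. At an adjusted p under 0.05, 6946 genes were called, or 39.3% of those tested. Of these, 3466 (19.6%) were higher and 3480 (19.7%) lower in high glucose. Calls of at least 2-fold numbered 1482 higher (8.38%) and 937 lower (5.3%), so that larger changes lay more often on the higher side. The 16-fold class held 135 higher and 63 lower genes, while changes under 1.5-fold held 973 and 1355. The groups did not overlap for 54.1% of genes, with 28.3% higher and 25.8% lower. Levels are given in CPM, counts scaled to library size and not to transcript length. Genes with high counts leaned the other way: among 2721 above 100 CPM in either group, 23.8% were higher and 38.3% lower, whereas among 3463 genes between 1 and 10 CPM the shares were 22.7% and 13.9%. The called-higher genes took 14.4 ± 0.188% of counts without treatment and 26.6 ± 0.186% with high glucose (mean ± SD, n = 3, here and below). This share follows from the calls and is a description. The called-lower genes went from 48.1 ± 0.685% to 30.9 ± 0.411%, and without the ER stress and ribosomal protein lists, as 3372 genes, from 36.3 ± 0.241% to 25.2 ± 0.190%. The split of calls depended on the scale. The limma fits took FPKM without the TMM scaling between libraries that edgeR used. The TMM factors were 0.959 to 0.974 in control and 1.07 to 1.10 in high glucose. With limma on log2(FPKM + 1), where FPKM is the deposited length-scaled value, 5235 were higher and 2399 lower (68.6% higher, against 49.9% by edgeR), and with a pseudocount of 0.1, 5120 and 2426 (67.9% higher). The median log2 fold change over all genes was 0.03 by edgeR and 0.17 with that pseudocount, so the direction of small changes is relative to this shift.

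**Figure D1:**
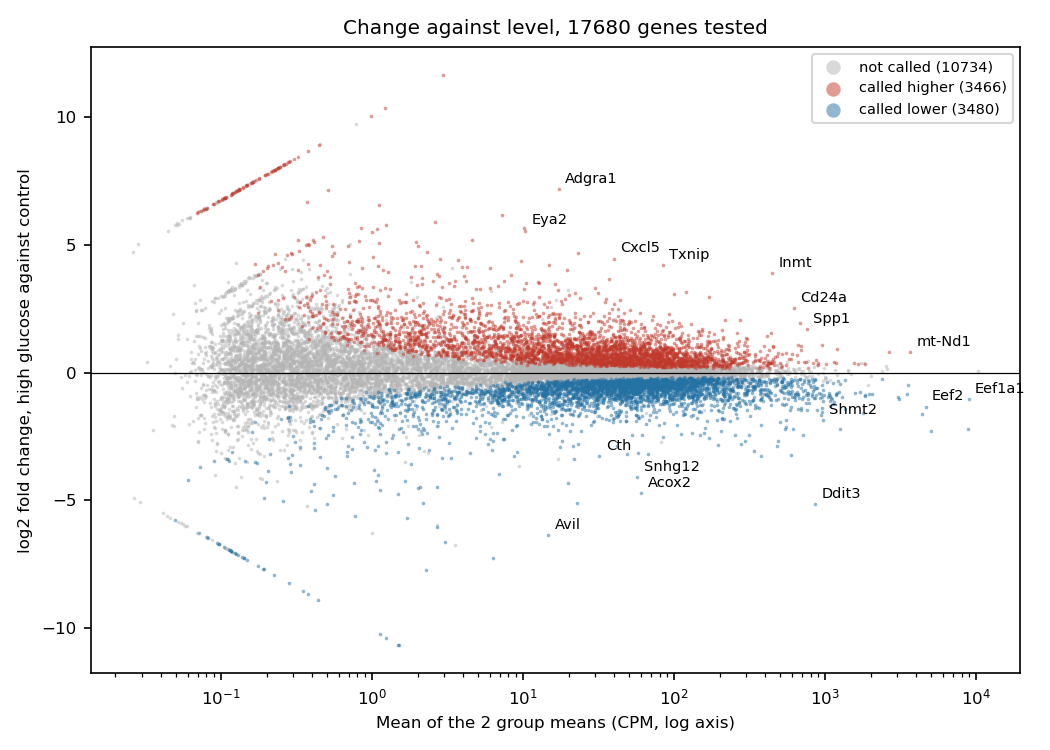
Each point is a gene tested, with the mean of the control and high glucose levels (CPM, log axis) on the x axis and the log2 fold change, high glucose against control, on the y axis. Red points (3466) were called higher and blue points (3480) lower. The straight edges at low levels are genes at or near 0 counts in a group, whose fitted fold change depends on the prior count and is no bound.

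**Figure D2:**
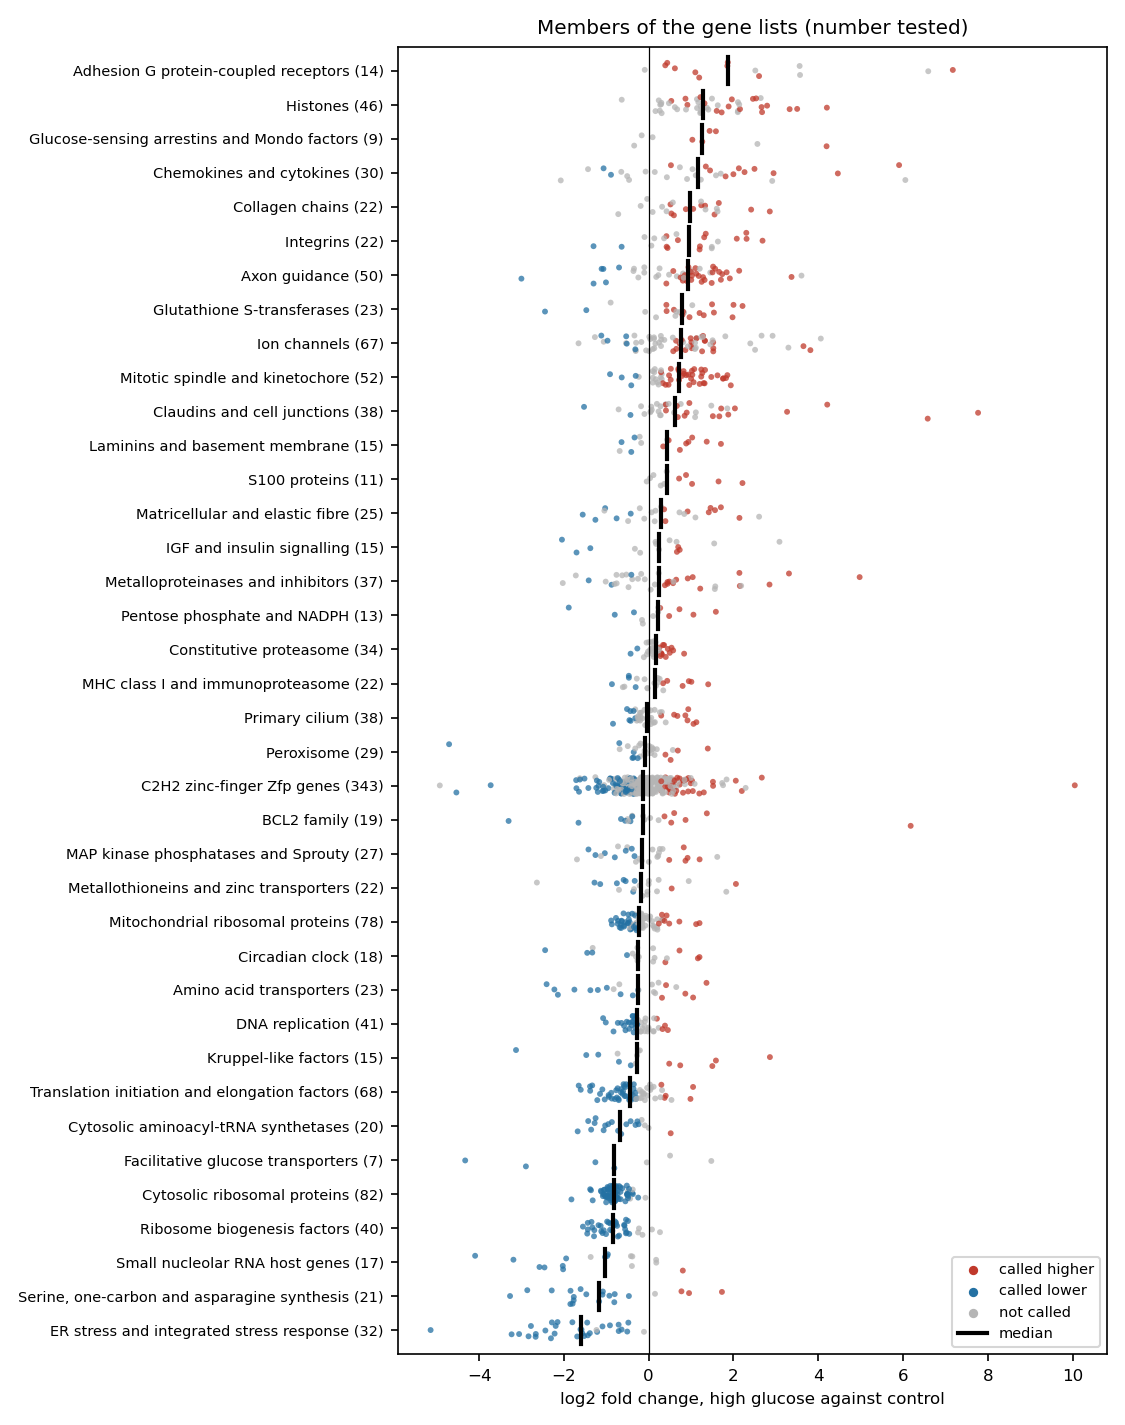
Each point is a tested member of a gene list, placed by its log2 fold change (high glucose against control). Black bars are list medians, numbers in brackets are members tested, red is called higher, blue called lower and grey not called. Cell type marker lists are not plotted. Of the lists plotted, adhesion receptors and histones sit at the top, with medians of 1.86 and 1.29, and ER stress genes and the serine and one-carbon list at the bottom, with −1.6 and −1.17. By limma on log2(FPKM + 1) these medians were 0.51, 0.46, −1.41 and −0.91, in the same order.

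Counts of calls in the lists below are to be read beside the shares over all genes tested, 19.6% higher and 19.7% lower. Among glucose-sensing arrestins and Mondo factors, 5 of 9 tested rose (median log2 fold change 1.27) and none fell, although 1 was called lower without high glucose library 2. The genes of the Mondo factors themselves, Mlxip (MondoA), Mlxipl (ChREBP) and Mlx, were not called by edgeR, nor was Arrdc1. Txnip, which binds and inhibits thioredoxin and drives internalisation of glucose transporters, carried the largest change of the list. Its levels were 7.52, 7.26 and 11.3 CPM in the control libraries, 165, 156 and 157 CPM in high glucose and 5.44, 6.62 and 4.17 CPM with AGEs. All 3 high glucose libraries lay far above the other 6, and the 3 of them lay close together (log2 fold change 4.2 with SE 0.22, adjusted p = 1.92e-06). Txnip (ENSMUSG00000038393) lies on GRCm38 chromosome 3, 96557957 to 96561883, plus strand. Against AGEs the log2 fold change was 4.88 (adjusted p = 9.42e-07). Klf10, a zinc-finger repressor induced by glucose and TGF-beta, was at 14.9, 15.1 and 12.4 CPM without treatment and at 40.2, 43.1 and 44.4 CPM with high glucose (log2 fold change 1.59, adjusted p = 8.76e-05). The arrestin-domain genes Arrdc4, Arrdc3 and Arrdc2, the last 2 chosen after their values were seen, rose, at log2 fold changes of 1.44, 1.27 and 1.03. Arrdc3 was at 33.9, 35.3 and 26.9 CPM in the controls and 90.2, 63.7 and 77.2 CPM under high glucose, without overlap.

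The RefSeq promoter of Txnip is shown because Txnip is a well-known target of the Mondo factors. The window (GRCm38.p6, chr3:96557707-96558006, plus strand) runs from 250 bases before to 50 bases after the start, 5′ to 3′, with a match to the carbohydrate response element in capitals. The search asked for CACGNG followed, after 5 bases, by CNCGNG. The match starts 85 bases before the start site.
Txnip: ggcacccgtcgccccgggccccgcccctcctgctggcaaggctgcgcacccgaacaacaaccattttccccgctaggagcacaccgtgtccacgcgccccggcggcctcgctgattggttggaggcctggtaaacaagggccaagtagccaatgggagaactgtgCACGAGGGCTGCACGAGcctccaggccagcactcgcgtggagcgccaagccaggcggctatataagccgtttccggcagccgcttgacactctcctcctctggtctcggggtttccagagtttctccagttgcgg
Of the 8 list members with a window, Txnip alone held this pair of sites on either strand, against 0.426% of 27025 genes with a promoter window. The match is a description of letters in this window.

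Of the facilitative glucose transporters, 4 of 7 fell and none rose, although 1 was called higher without high glucose library 1. Slc2a1 (GLUT1), the basal glucose carrier, was at 482, 459 and 504 CPM in the control libraries, 214, 199.9 and 191 CPM in high glucose and 457, 489.9 and 594 CPM with AGEs. The high glucose libraries lay below all others (log2 fold change −1.26 with SE 0.10, adjusted p = 1.89e-05). Slc2a6 (GLUT6), a transporter of internal membranes, fell 7.44-fold, from 31.1 ± 3.64 to 4.18 ± 0.339 CPM (adjusted p = 1.22e-06). The fructose carrier gene Slc2a5, chosen after its values were seen, was at 0.958, 0.973 and 2.4 CPM in control, against 0.0965, 0 and 0.101 in high glucose (log2 fold change −4.33, adjusted p = 0.00373). In the pentose phosphate and NADPH list, 5 of 13 rose and 3 fell. Enzymes that make NADPH were among those that rose: H6pd, the ER hexose-6-phosphate dehydrogenase, was at 80.5, 85.8 and 88.8 CPM without treatment and at 247, 256 and 263 CPM with high glucose (log2 fold change 1.59, adjusted p = 6.04e-07). Idh1, the cytosolic isocitrate dehydrogenase, rose from 98.2 ± 3.44 to 204 ± 16.1 CPM. Pgd and G6pdx, the cytosolic NADPH-producing steps of the pathway and chosen after their values were seen, rose at log2 fold changes of 0.73 and 0.27. Pgd was also above control with AGEs (336, 355 and 400.1 CPM, against 233, 222 and 247 in control). The G6pdx call was lost when a change over 1.2-fold was required (adjusted p 0.000199 to 0.391 over the alternatives). Of the 3 that fell, Rpia and Rpe interconvert the pathway's pentose phosphates, and the other was the malic enzyme gene Me2. Its relative Me1 was called higher, and Me3 and Idh2 were not called. Rpia was at 77.2, 71.7 and 77 CPM in the controls and 21.1, 22.3 and 17.7 CPM under high glucose (log2 fold change −1.88, adjusted p = 2.13e-06), and Rpe fell by 0.80 on the log2 scale. Of IGF and insulin signalling genes, 3 of 15 rose and 3 fell, close to the shares over all genes. Irs2, an insulin receptor substrate, was at 121, 128 and 134 CPM in control, 34.2, 28 and 30.7 CPM under high glucose and 96.8, 86 and 75.7 CPM with AGEs, the high glucose libraries lowest (log2 fold change −2.04 with SE 0.11, adjusted p = 2.43e-06). Grb10, an adaptor that restrains insulin and IGF receptors, fell 3.25-fold (adjusted p = 1.23e-06). Igf1r and the transcription factor gene Foxo1, the latter chosen after its values were seen, rose, at log2 fold changes of 0.73 and 0.67.

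Genes that make amino acids from glucose and carry one-carbon units mostly fell. In the serine, one-carbon and asparagine list, 17 of 21 tested (81%) fell and 3 rose. Shmt2, the mitochondrial enzyme that takes the one-carbon unit from serine, was at 1446, 1403 and 1667 CPM in the control libraries, 419, 436 and 401 CPM in high glucose and 1318, 1453 and 1411 CPM with AGEs. The high glucose libraries were lowest and close together (log2 fold change −1.85 with SE 0.08, adjusted p = 7.72e-07). Mthfd2, the next mitochondrial folate enzyme, went from 321 ± 5.34 to 94.4 ± 3.68 CPM (log2 fold change −1.77, adjusted p = 2.16e-07), and Got1, the cytosolic aspartate aminotransferase, from 302 ± 13.3 to 84.2 ± 5.31 CPM. Aldh1l2, which oxidises formyl-folate in mitochondria, Pycr1, the last enzyme of proline synthesis, and Asns, asparagine synthetase, were chosen after their values were seen. They fell, at log2 fold changes of −2.86, −2.29 and −1.09. Around cystathionine, the enzymes on either side moved in opposite directions. Cth, which cleaves cystathionine to cysteine, was at 60.6, 54.6 and 58.6 CPM in control, against 5.67, 6.94 and 5.45 in high glucose, 9.64-fold lower (adjusted p = 3.93e-07). Cbs, which makes cystathionine, was at 24.6, 25 and 24.5 CPM without treatment and at 94.5, 77.7 and 73.4 CPM with high glucose, 3.32-fold higher (adjusted p = 3.27e-05). Glul, glutamine synthetase, also rose (38.2 ± 2.36 to 73.9 ± 1.75 CPM, adjusted p = 2.19e-05).

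Amino acid transporters were split, with 10 of 23 (43.5%) lower and 5 (21.7%) higher, the latter near the 19.6% of all genes. Slc3a2, the heavy chain (CD98) of several exchangers, was at 999.7, 936 and 1081 CPM in the controls and 227, 219 and 199.7 CPM under high glucose, without overlap (log2 fold change −2.22 with SE 0.08, adjusted p = 2.24e-07). Slc1a4, a neutral amino acid exchanger, fell by 1.75 on the log2 scale. Slc7a5, the LAT1 light chain of CD98, the glycine carrier gene Slc6a9 and the cystine carrier gene Slc7a11 were chosen after their values were seen. They fell, at log2 fold changes of −1.2, −2.41 and −0.66. The Slc7a11 call was lost with limma (adjusted p 0.000907 to 0.106 over the alternatives). The taurine carrier gene Slc6a6 was at 191, 196 and 202 CPM in control, against 426, 372 and 421 in high glucose, all 3 above control (log2 fold change 1.05, adjusted p = 3.09e-05), and Slc7a7, a light chain that exports basic amino acids, rose by 0.87 on the log2 scale. Of the cytosolic aminoacyl-tRNA synthetases, 16 of 20 fell. Iars was at 336, 332 and 330.4 CPM without treatment and at 132, 130.1 and 129 CPM with high glucose (log2 fold change −1.36, adjusted p = 4.32e-07), and Nars fell from 617 ± 29.9 to 259 ± 14.1 CPM. Mars, the methionine enzyme, was the single member called higher (by 0.52 on the log2 scale), and it overlaps Ddit3 on the opposite strand, so that its counts are uncertain. Atf4 itself, chosen after its values were seen, was at 1654, 1591 and 643 CPM in the controls and 660.4, 387 and 376 CPM under high glucose. Control library 3 overlapped high glucose library 1, and the call (log2 fold change −1.45, adjusted p = 0.0149) was lost without control library 1 or 2 or without high glucose library 2 or 3, with adjusted p from 0.0507 to 0.0573.

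Sequences around a C/EBP-ATF composite element, TGATGCAA on either strand, are shown for members of these lists, since ATF4 with a C/EBP partner is known to bind such sites. The element was found in 4 of 13 synthetases with a promoter window, in 3 of 17 transporters and in 2 of 17 members of the serine list, against 1.03% of all 27025 genes with a window. The lines give up to 24 bases on each side, 5′ to 3′ on the gene's strand (GRCm38.p6), with the element in capitals. They lie at chr13:49682113-49682168, plus strand for Iars, chr4:129189882-129189937, plus strand for Yars, chr15:11399642-11399697, minus strand for Tars, chr8:111033706-111033761, plus strand for Aars, chr11:20332686-20332741, minus strand for Slc1a4, chr14:54417914-54417969, minus strand for Slc7a7, chr19:43524676-43524731, minus strand for Got1 and chr11:120643820-120643875, minus strand for Pycr1.
Iars: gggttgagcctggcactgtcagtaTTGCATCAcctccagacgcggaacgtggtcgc
Yars: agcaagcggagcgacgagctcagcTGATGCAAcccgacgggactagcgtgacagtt
Tars: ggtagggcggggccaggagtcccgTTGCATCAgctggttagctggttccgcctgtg
Aars: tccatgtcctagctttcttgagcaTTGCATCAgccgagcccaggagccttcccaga
Slc1a4: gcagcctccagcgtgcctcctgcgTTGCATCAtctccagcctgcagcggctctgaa
Slc7a7: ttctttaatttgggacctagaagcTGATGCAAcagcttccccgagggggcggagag
Got1: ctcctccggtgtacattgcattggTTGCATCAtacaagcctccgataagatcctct
Pycr1: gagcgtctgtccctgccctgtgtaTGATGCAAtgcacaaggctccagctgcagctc
All of these genes except Slc7a7 fell. Yars, Tars and Aars, chosen for their sequence, fell, at log2 fold changes of −1.27, −0.95 and −0.72, while Slc7a7, with the same letters, rose. Slc7a11, the remaining transporter with the element, is not shown.

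The machinery of protein synthesis fell beyond the ribosomal proteins. Of translation initiation and elongation factors, a list that by name also holds kinases, methyltransferases and eIF4E-binding proteins, 43 of 68 fell and 5 rose (3 without control library 3). Eef1a1, which brings charged tRNA to the ribosome, was at 12005, 11743 and 12254 CPM in control, 5962, 5972 and 5627 CPM under high glucose and 11819.5, 11966 and 10746 CPM with AGEs. Eef2, the translocation factor, was at 6361, 6302 and 7189.7 CPM in control, against 2554, 2726 and 2612 in high glucose. In both genes the high glucose libraries stood apart below all others, with log2 fold changes of −1.04 and −1.33 (adjusted p = 3.35e-06 and 2.13e-06). The initiation factor gene Eif3c fell from 1564 ± 32.6 to 706 ± 17.2 CPM. The 5 that rose were Eif2ak2 (PKR) and Eif2ak4 (GCN2), kinases of eIF2alpha, Eif4ebp2, which sequesters the cap-binding protein, and the initiation factor genes Eif4h and Eif1ax. Eif2ak2 rose by 1.05 and Eif4ebp2 by 0.40 on the log2 scale. Eif4ebp1, a restraint on initiation, and Eef2k, a restraint on elongation, were called lower.

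Ribosome biogenesis factors, which process ribosomal RNA and assemble subunits in the nucleolus, fell in 35 of 40 cases (87.5%, against 19.7% of all genes), and none rose. Npm1, a nucleolar chaperone, was at 1473, 1472 and 1331 CPM without treatment and at 505, 468 and 488 CPM with high glucose (log2 fold change −1.55, adjusted p = 2.13e-06). Ncl, nucleolin, was at 2104, 2144 and 1722 CPM in the control libraries, 765, 682 and 761 CPM in high glucose and 2556, 2446 and 2380.4 CPM with AGEs, and Gnl3, nucleostemin, fell by 1.44 on the log2 scale. Myc, which encodes a transcription factor that drives this programme, was chosen after its values were seen and was at 104, 79.6 and 98.6 CPM in the controls and 26.9, 30 and 29.8 CPM under high glucose (log2 fold change −1.7, adjusted p = 5.66e-05). Small nucleolar RNA host genes, whose introns carry the guides for ribosomal RNA modification, fell in 10 of 17 cases and rose in 1. Snhg12 was at 115, 93.4 and 116 CPM in control, against 6.91, 5.38 and 6.65 in high glucose, 17.1-fold lower, with AGEs at 103, 105 and 94.3 CPM. Snhg5 and Snhg1 fell, at log2 fold changes of −3.19 and −2.57, and Gas5, chosen after its values were seen, from 526 ± 31.1 to 95.8 ± 8.71 CPM. The exception, Snhg18, rose from 2.86 ± 0.379 to 5.0 ± 0.352 CPM. Mitochondrial ribosomal proteins moved less, with 28 of 78 lower, 9 higher (5 without high glucose library 1 or 2) and a median of −0.22. That median was −0.03 with limma on log2(FPKM + 1). Mrps26 fell by 0.88 on the log2 scale, while Mrps6 rose by 1.2 on the log2 scale.

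The E-box CACGTG, the site of MYC and of several other basic helix-loop-helix factors, was present in the promoter windows of 9 of 36 biogenesis factors (25%), against 8.09% of all genes. Of the members called lower, 8 of 32 with a window held the E-box, and so did Rrn3, which was not called. The search covered both strands, on which this palindrome reads the same, and a carbohydrate response element can overlap it. Nop2, an RNA methyltransferase, and Pes1, a large-subunit assembly factor, are shown as examples (chr6:125131799-125131852, plus strand, and chr11:3963953-3964006, plus strand), with the E-box in capitals. They were chosen for this match and fell, at log2 fold changes of −1.29 and −0.90.
Nop2: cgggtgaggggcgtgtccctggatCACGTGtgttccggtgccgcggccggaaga
Pes1: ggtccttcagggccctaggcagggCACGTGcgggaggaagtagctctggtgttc

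Cell cycle genes split by phase. In the mitotic spindle and kinetochore list, 35 of 52 (67.3%) rose and 4 fell (2 without high glucose library 2), and the list median was 0.71. In the DNA replication list, 4 of 41 rose (1 without control library 1 or high glucose library 1, and 2 without high glucose library 2) and 21 (51.2%) fell (median −0.27). The changes in replication genes were small, and their count of calls fell from 21 to 9 with limma on log2(FPKM + 0.1), where the median stayed below 0. Bub1b, a spindle checkpoint kinase, was at 50.7, 51.7 and 45.1 CPM in control, 165, 174 and 184 CPM under high glucose and 49.1, 54.8 and 67.6 CPM with AGEs. Kif2c, a kinesin that takes microtubules apart at the centromere, was at 58.4, 62 and 58.2 CPM without treatment and at 116, 119 and 128 CPM with high glucose. The high glucose libraries lay above all others for both genes, at log2 fold changes of 1.83 and 1.02 (adjusted p = 6.86e-06 and 1.2e-05). Plk1, the mitotic polo kinase, Ccnb2, a B-type cyclin, and Cdk1, its kinase, all chosen after their values were seen, rose, at log2 fold changes of 1.94, 1.27 and 0.83. Cenpn, a centromere protein, fell by 0.91 on the log2 scale, and Spc24 by 0.41 on the log2 scale, a call lost with limma (adjusted p 0.00245 to 0.102 over the alternatives). Of the replication genes, Mcm10, an initiation factor, was at 123, 142 and 125 CPM in the controls and 58.8, 59.6 and 67.2 CPM under high glucose (log2 fold change −1.07, adjusted p = 3.87e-05). Cdc6, which loads the replicative helicase, went from 191 ± 4.68 to 108 ± 4.17 CPM, and Mcm2, a helicase subunit chosen after its values were seen, from 503 ± 21.2 to 322 ± 4.31 CPM. The primase subunit gene Prim2 rose by 0.45 on the log2 scale. Whether more cells were in mitosis or each held more of these transcripts cannot be told apart in bulk RNA, and the same holds for every list below.

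**Figure D3:**
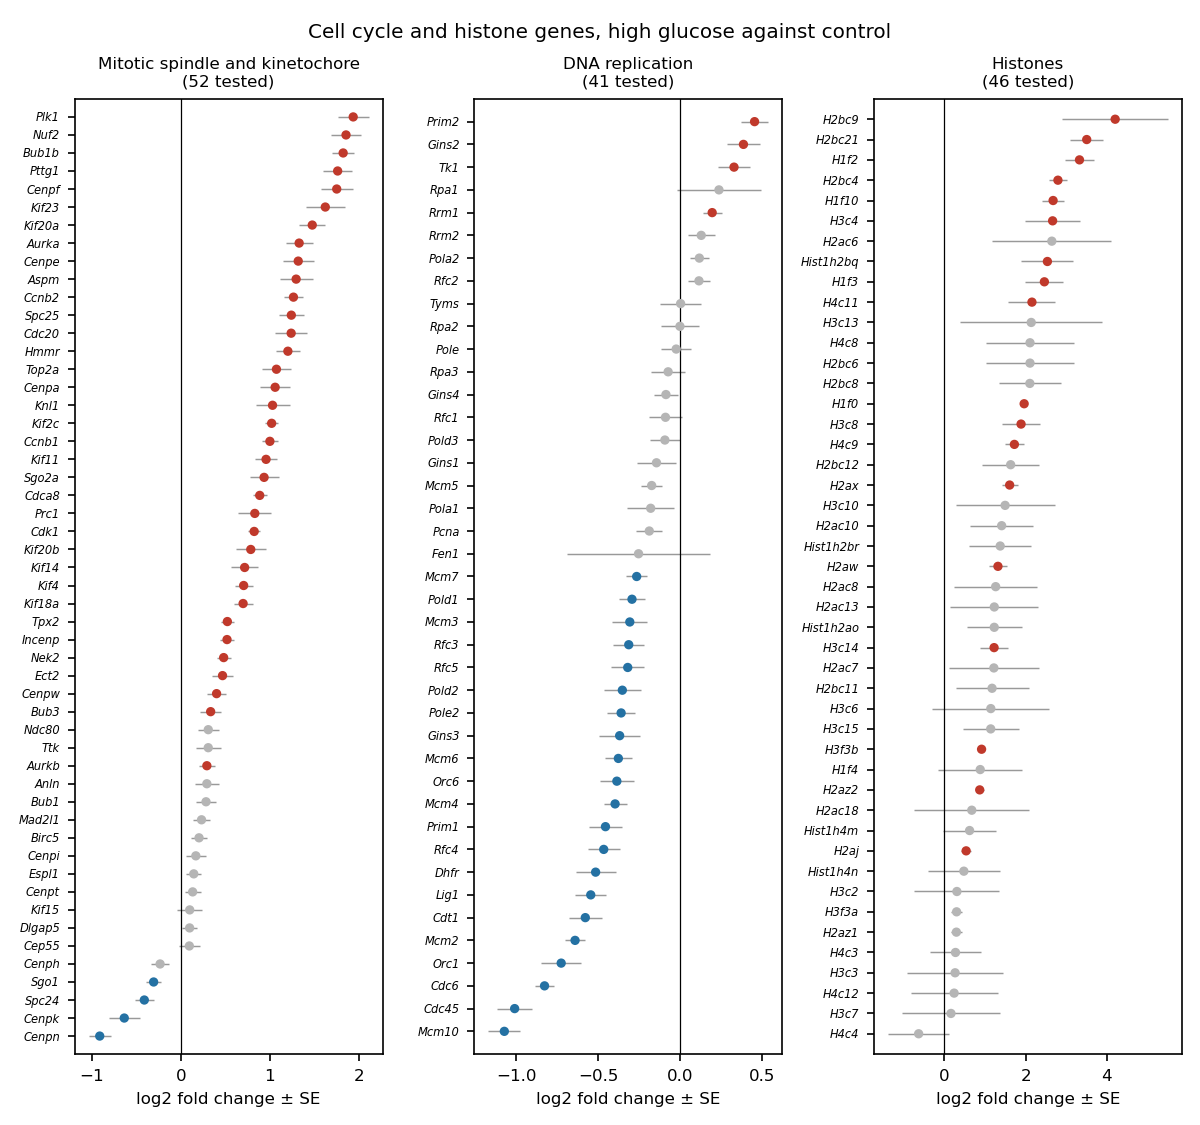
Log2 fold change of each tested member, high glucose against control, with its standard error (bars), for mitotic, replication and histone genes. Red points were called higher, blue lower and grey not called. Most mitotic members lie right of 0 (35 of 52 called higher), most called replication members left of 0 (21 lower, 4 higher), and all 18 called histone genes right of 0.

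Promoters of late cell cycle genes often hold a cell cycle homology region, TTTGAA, which is bound by the MuvB complex. The letters, searched on both strands, were in the windows of 31 of 47 mitotic members (66.0%), 5 of 33 replication members (15.2%) and 20.2% of all genes. Such a short motif is common. Of the mitotic members called in either direction, 25 of 35 with a window held it, among them Cenpn, which fell. Examples from the mitotic list that rose and from the replication list that fell follow, with the letters in capitals (chr2:118598227-118598260, plus strand for Bub1b, chr4:117178846-117178899, minus strand for Kif2c, chr10:69352954-69353007, minus strand for Cdk1, chr9:70421692-70421745, minus strand for Ccnb2 and chr6:88898821-88898874, minus strand for Mcm2).
Bub1b: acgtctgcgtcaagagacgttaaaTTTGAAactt
Kif2c: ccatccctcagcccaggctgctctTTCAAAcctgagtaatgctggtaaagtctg
Cdk1: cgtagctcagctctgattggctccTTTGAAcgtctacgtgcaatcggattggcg
Ccnb2: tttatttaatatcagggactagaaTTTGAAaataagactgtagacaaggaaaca
Mcm2: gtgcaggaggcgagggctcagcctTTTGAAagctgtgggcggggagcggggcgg

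Histone genes rose in 18 of 46 cases and fell in none, with a median of 1.29 (0.46 with limma on log2(FPKM + 1)). The list mixes histones made in S phase, whose messages lack a poly(A) tail, with variants made outside it. H1f0, a linker histone of resting and differentiated cells, was at 279, 275 and 279.8 CPM in the control libraries, 1114, 1093 and 1045 CPM in high glucose and 231, 242 and 255 CPM with AGEs (log2 fold change 1.96 with SE 0.06, adjusted p = 1.6e-07). H3f3b, the replacement histone H3.3, rose from 831 ± 28.2 to 1567 ± 91.2 CPM. H1f2, a linker histone of the S-phase cluster, and H2ax, chosen after their values were seen, rose, at log2 fold changes of 3.33 and 1.61. The selection used to capture RNA is not given in the sources used here. The count of histone calls ran from 12, with a filter at a mean CPM of 1, to 32, with limma on log2(FPKM + 1), and no setting gave a lower call.

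Matrix and adhesion genes rose more often than they fell. All genes tested between 1 and 10 CPM leaned the same way (22.7% higher, 13.9% lower), and the lists were not matched for level. Collagen chains rose in 11 of 22 cases and fell in none, with a median of 0.96 (0.27 with limma on log2(FPKM + 1)). Col6a1, a chain of the microfibrillar collagen VI, was at 1.16, 1.58 and 1.61 CPM in control, against 7.53, 7.84 and 7.93 in high glucose (log2 fold change 2.42, adjusted p = 3.46e-05). Col16a1, which sits at the surface of collagen fibrils, was at 19.6, 19.4 and 20.2 CPM without treatment and at 33.2, 37.6 and 37.9 CPM with high glucose, also without overlap. Col4a3, a chain of the mature glomerular basement membrane chosen after its values were seen, was uneven. It was at 6.96, 6.26 and 6.55 CPM in control, 9.95, 24.4 and 28 CPM under high glucose and 14.1, 9.2 and 16.6 CPM with AGEs, and high glucose library 1 lay just above control (log2 fold change 1.66, adjusted p = 0.00483). Of laminins and other basement membrane genes, 8 of 15 rose and 3 fell. Nid2, which links laminin to collagen IV, was at 28.4, 29.1 and 28.5 CPM in the controls and 71, 71.5 and 79.9 CPM under high glucose (log2 fold change 1.37, adjusted p = 4.17e-05). Lama5, the alpha chain of the glomerular basement membrane, fell from 478 ± 34.2 to 307 ± 40.4 CPM, and Lamb2, its beta partner, by 0.33 on the log2 scale. The Lamb2 call was lost with limma (adjusted p 0.00225 to 0.189 over the alternatives).

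Among matricellular and elastic fibre genes, 8 of 25 (32%) rose and 5 (20%) fell, the latter near the 19.7% of all genes. Spp1, osteopontin, was at 391, 340.1 and 338 CPM in the control libraries, 1148, 1115 and 1224 CPM in high glucose and 339.9, 356 and 441 CPM with AGEs, highest in every high glucose library (log2 fold change 1.71, adjusted p = 5.46e-06). Of the 5 lysyl oxidases, which cross-link collagen, Lox, Loxl1, Loxl2 and Loxl3 rose and Loxl4 fell. Loxl2 was at 139, 127 and 131 CPM in control, against 361, 407 and 408 in high glucose, while Loxl4 was at 145, 154 and 159.5 CPM and 46.4, 55.6 and 54.2 CPM, at log2 fold changes of 1.57 and −1.56. Thbs1, a thrombospondin that activates TGF-beta, rose by 1.46 on the log2 scale. Of the CCN genes tested, Ccn1, Ccn2 and Ccn4 fell and Ccn5 was not called. Ccn4 fell by 1.03 on the log2 scale and Ccn2 by 1.26 on the log2 scale, and Fn1, fibronectin, fell from 738 ± 92.2 to 437 ± 108 CPM. Thbs1, Ccn2 and Fn1 were chosen after their values were seen. Of metalloproteinases and inhibitors, 14 of 37 rose and 3 fell, with 8 higher without control library 3 and 9 without high glucose library 1 or 3. Adamts4, an aggrecan-cleaving enzyme, was at 5.57, 5.65 and 7.75 CPM without treatment and at 25, 29.1 and 30.2 CPM with high glucose (log2 fold change 2.15, adjusted p = 1.18e-05), and Mmp14, a membrane-bound collagenase, rose from 30.4 ± 0.889 to 57.6 ± 4.23 CPM. Integrins rose in 12 of 22 cases and fell in 2 (1 on leaving out any single library). Itgb3, the beta chain of the vitronectin receptor that binds osteopontin, was at 4.07, 3.82 and 4.34 CPM in the controls and 17, 21.1 and 22.6 CPM under high glucose, without overlap (log2 fold change 2.31, adjusted p = 3.92e-05). Itgb2, a beta chain best known from leukocytes, rose from 0.984 ± 0.125 to 4.87 ± 0.634 CPM, and the laminin receptor gene Itga7 fell by 0.64 on the log2 scale.

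Junction, guidance and adhesion receptor genes gave some of the largest rises. Of claudins and other junction genes, 16 of 38 rose and 2 fell. Cldn4, a tight junction claudin of tubular epithelium, was at 2.06, 0.828 and 1.64 CPM in control, 19.2, 32.6 and 32.2 CPM under high glucose and 2.34, 2.64 and 9.82 CPM with AGEs (log2 fold change 4.21 with SE 0.61, adjusted p = 0.000548). Cdh16, kidney-specific cadherin, was at 99.3, 96.1 and 101 CPM in control, against 327, 302 and 312 in high glucose, without overlap. Cldn2, a pore-forming claudin of the proximal tubule, chosen after its values were seen, was called on uneven values. It was at 1.13, 1.19 and 0.419 CPM without treatment and at 0.217, 14.1 and 12.2 CPM with high glucose, so that library 1 lay below control, and the call (adjusted p = 0.0377) was lost in 10 of 16 alternatives, among them limma and leaving out any single library other than high glucose library 1 (adjusted p 0.000444 to 0.158). Gja1, connexin 43, was at 9.83, 7.19 and 8.83 CPM in the controls and 2.26, 3.61 and 3.15 CPM under high glucose, below control throughout (log2 fold change −1.52, adjusted p = 0.000248), and Cdh2, N-cadherin, fell by 0.43 on the log2 scale, a call lost with limma and without control library 1 or high glucose library 1 (adjusted p 0.00558 to 0.143 over the alternatives).

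Axon guidance genes, the ligands and receptors of semaphorin, ephrin, slit and netrin signalling that also shape podocyte processes, rose in 28 of 50 cases (56%) and fell in 6. The semaphorin gene Sema3f was at 28.5, 26.6 and 32.9 CPM in the control libraries, 97.4, 102 and 93.8 CPM in high glucose and 25.5, 23.8 and 24.6 CPM with AGEs (log2 fold change 1.74, adjusted p = 2.43e-06). The plexin receptor gene Plxnd1 rose from 6.79 ± 0.484 to 24.3 ± 2.5 CPM, and Plxnb1, chosen after its values were seen, from 23.2 ± 0.748 to 73.3 ± 7.04 CPM. Not every family member followed, since Plxna3 fell by 1.3 on the log2 scale and Sema3e, a ligand of Plxnd1, by 1.07 on the log2 scale. Adhesion G protein-coupled receptors, which pair a long extracellular domain with a signalling core, rose in 9 of 14 cases and fell in none, although 1 was called lower without high glucose library 3. Adgra1 was at 0.126, 0.276 and 0.302 CPM in control, 36.5, 31.4 and 34.4 CPM under high glucose and 0, 0 and 0.437 CPM with AGEs, the largest rise under the rule for named genes (log2 fold change 7.18 with SE 0.89, adjusted p = 0.000215). The latrophilin gene Adgrl2 was at 9.5, 11.2 and 10.4 CPM in control, against 38.1, 34.6 and 39.7 in high glucose (log2 fold change 1.86, adjusted p = 0.000145). Its relative Adgrl1, chosen after its values were seen, was at 21.9, 22.9 and 65.8 CPM in high glucose, against 10, 10.7 and 9.64 CPM in control, with library 3 above the other 2. Ion channels rose in 20 of 67 cases and fell in 5. Cacna1g, the pore of a T-type calcium channel, was at 5.75, 4.39 and 6.14 CPM without treatment and at 54.4, 71.4 and 78.8 CPM with high glucose (log2 fold change 3.65, adjusted p = 8.51e-05), and the inward rectifier gene Kcnj14 rose from 1.1 ± 0.46 to 15.5 ± 1.59 CPM. The chloride-proton exchanger genes Clcn7 and Clcn6, which act in lysosomes and late endosomes, fell, at log2 fold changes of −0.97 and −0.53.

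**Figure D4:**
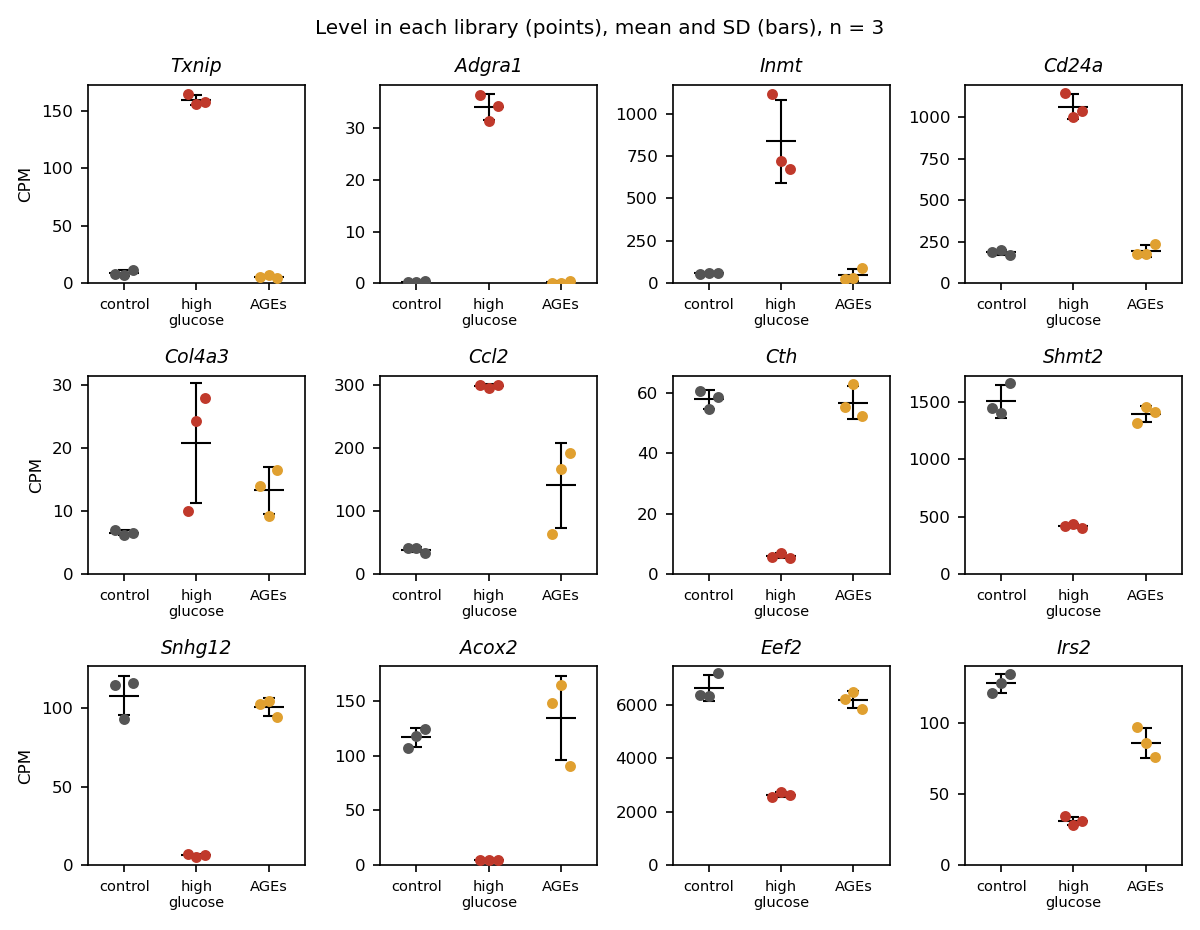
Level in CPM (linear axes starting at 0) of 12 genes in each control, high glucose and AGEs library, with the mean and SD of 3 libraries as bars. Txnip, Adgra1, Inmt and Cd24a are high only in the 3 high glucose libraries, Cth, Shmt2, Snhg12, Acox2, Eef2 and Irs2 are low there, and Col4a3 and Ccl2 are also above control in the AGEs libraries.

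Chemokines and cytokines rose in 11 of 30 cases and fell in 2. Ccl2, which attracts monocytes, was at 41.6, 40.8 and 33.8 CPM in the control libraries, 301, 295 and 301 CPM in high glucose and 64.2, 168 and 192 CPM with AGEs. The high glucose libraries were tight, the AGEs libraries spread between the groups, and high glucose differed from both control (log2 fold change 2.95, adjusted p = 0.000141) and AGEs (log2 fold change 1.08, adjusted p = 0.0226). Cxcl5, a neutrophil chemokine, was at 3.74, 3.71 and 2.92 CPM in the controls and 90.3, 66.4 and 72.1 CPM under high glucose (log2 fold change 4.46, adjusted p = 0.00156), with AGEs at 16.8, 163 and 30.3 CPM. The AGEs libraries straddled the high glucose ones, and that difference did not pass (log2 fold change 0.12, adjusted p = 0.91). Csf3, the granulocyte growth factor, was near 0 in control (0.126, 0.0581 and 0.0671 CPM) and at 5.73, 4.57 and 5.05 CPM in high glucose. Cxcl16 and Il34, which act on T cells and on macrophages, fell, at log2 fold changes of −0.89 and −1.06, and Il23a, a subunit of interleukin 23 that is not on this list, was at 38.1, 42.4 and 38.3 CPM in control, against 4.02, 3.74 and 3.56 in high glucose (log2 fold change −3.39, adjusted p = 3.4e-06). In the MHC class I and immunoproteasome list 6 of 22 rose and 4 fell (2 without control library 1 or 3 or without high glucose library 1 or 2). These were 27.3% and 18.2% of the list, against 19.6% and 19.7% of all genes. Tapbp, tapasin, which loads peptides on class I molecules, went from 40.3 ± 2.07 to 107 ± 6.8 CPM, while B2m, the class I light chain, fell by 0.31 on the log2 scale, a call lost with limma (adjusted p 0.00155 to 0.262 over the alternatives). Constitutive proteasome genes rose in 13 of 34 cases and fell in 2 (1 without control library 3 or without high glucose library 1 or 3), by small amounts, with Psmd3 the furthest at 0.84. The count that rose ran from 5, when a change over 1.2-fold was required, to 24 with limma on log2(FPKM + 1).

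Glutathione S-transferases rose in 13 of 23 cases (56.5%) and fell in 2. Gstt1, of the theta class, was at 8.87, 7.82 and 8.25 CPM without treatment and at 36.7, 30.6 and 31 CPM with high glucose (log2 fold change 1.98, adjusted p = 1.08e-05). Gsta4, which conjugates the lipid peroxidation product 4-hydroxynonenal, was at 12.8, 14.3 and 13 CPM in control, 63.2, 50.7 and 46.5 CPM under high glucose and 60.8, 62.8 and 91.3 CPM with AGEs. Both treated groups lay above control for Gsta4, and their difference did not pass (adjusted p = 0.0761). Gsto1 fell from 369 ± 126 to 133 ± 10.7 CPM, with a wide spread in control. Genes of this family are close in sequence, and how shared reads were counted is not given in the sources used here. Metallothioneins and zinc transporters fell in 7 of 22 cases and rose in 2. Mt2 was at 784, 733 and 741 CPM in the control libraries, 359.9, 311 and 260.4 CPM in high glucose and 362, 438 and 418 CPM with AGEs, with both treated groups below control (log2 fold change −1.28, adjusted p = 4.06e-05). The zinc importer gene Slc39a10 was at 7.82, 8.7 and 6.79 CPM in the controls and 30, 30.1 and 37.1 CPM under high glucose, while Slc39a14, another importer, fell by 1.14 on the log2 scale. Calcium-binding S100 genes rose in 5 of 11 cases and fell in none. S100a4, a marker often used for fibroblast-like change, was at 4.07, 4.62 and 4.91 CPM in control, against 22.9, 21 and 19.1 in high glucose (log2 fold change 2.21, adjusted p = 2.35e-05), and S100a11 rose from 258 ± 2.3 to 524 ± 40.1 CPM.

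BCL2 family genes, which set the threshold for apoptosis at mitochondria, moved in both directions, with 6 of 19 higher and 6 lower. Bcl2l11 (BIM), a BH3-only promoter of apoptosis, was at 16.4, 16 and 14.7 CPM without treatment and at 46.1, 28.5 and 47.4 CPM with high glucose (log2 fold change 1.37, adjusted p = 0.00035). Bmf, of the same class, was chosen after its values were seen and was at 0.173, 0.276 and 0.134 CPM in the controls and 11.4, 15.9 and 15.7 CPM under high glucose (log2 fold change 6.18, adjusted p = 0.00187). Another BH3-only gene, Hrk, chosen after its values were seen, fell from low levels (0.754, 0.93 and 0.788 CPM in control, 0.133, 0 and 0.101 CPM under high glucose). The effector gene Bax fell from 121 ± 10.3 to 76.8 ± 6.13 CPM, and the protector Mcl1 rose by 0.37 on the log2 scale, a call lost when a change over 1.2-fold was required (adjusted p 1.98e-06 to 0.0586 over the alternatives). Among Kruppel-like factors 5 of 15 rose (3 without high glucose library 3) and 5 fell. Klf15, a regulator of gluconeogenesis and amino acid breakdown that also guards podocyte differentiation, was at 16.6, 16.6 and 16 CPM in control, against 2.76, 1.28 and 1.54 in high glucose (log2 fold change −3.13 with SE 0.27, adjusted p = 2.83e-05). Klf5 fell by 1.19 on the log2 scale, and Klf7 rose by 1.5 on the log2 scale. Of circadian clock genes, 4 of 18 rose (2 without control library 3 or high glucose library 3) and 4 fell, near the background shares. The repressor genes Ciart and Cry1 were lower, Ciart at 71.4, 91.3 and 104 CPM without treatment and at 18.4, 15.3 and 15.4 CPM with high glucose and Cry1 from 83 ± 3.48 to 30.4 ± 1.4 CPM. Dbp, an output factor of the clock, and Nr1d1, another of its repressors, were higher, at log2 fold changes of 1.2 and 1.16, while the output gene Nfil3, chosen after its values were seen, was lower at −1.33. Of MAP kinase phosphatases and Sprouty-related genes, 5 of 27 (18.5%) rose and 7 (25.9%) fell (4 without high glucose library 2), near the background shares. Dusp1 and Dusp8 were at −1.03 and −1.42 and Spred3 at 1.2 on the log2 scale.

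Several lists stayed near the shares of all genes. Peroxisome genes rose in 4 of 29 cases and fell in 6 (2 without control library 1 or 3 or high glucose library 3, and 3 without high glucose library 1), although Acox2, which oxidises branched fatty acids and bile acid intermediates, was at 107, 118 and 125 CPM in the control libraries, 4.67, 4.39 and 4.32 CPM in high glucose and 148, 164 and 90.6 CPM with AGEs, 26.1-fold lower (adjusted p = 9.79e-07). Primary cilium genes rose in 8 of 38 cases and fell in 7 (3 without control library 1 and 4 without high glucose library 2). C2H2 zinc-finger genes with Zfp symbols rose in 41 of 343 cases (12%) and fell in 70 (20.4%; 45 genes without control library 1 or 2 or high glucose library 2), so that the share that rose lay below the 19.6% of all genes. The medians of the peroxisome, cilium, BCL2, MAP kinase phosphatase and Zfp lists lay between −0.16 and −0.05 and were positive with limma on log2(FPKM + 0.1).

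Other large changes fell outside the lists. Eya2, a developmental coactivator and phosphatase, was at 0.487, 0.174 and 0.62 CPM in the controls and 22.2, 19.3 and 18.9 CPM under high glucose (log2 fold change 5.56, adjusted p = 0.000116). Inmt, an indolethylamine methyltransferase, was at 53.2, 57.5 and 58 CPM in control, 1117, 718 and 674 CPM under high glucose and 23.9, 29 and 86.4 CPM with AGEs, with library 1 the highest (log2 fold change 3.9 with SE 0.47, adjusted p = 0.000193). Angptl4, a secreted inhibitor of lipoprotein lipase, rose from 2.27 ± 0.536 to 36.7 ± 7.38 CPM, while its relative Angptl6 fell from 37.6 ± 2.4 to 1.9 ± 0.711 CPM, so the 2 members of that family moved in opposite directions by 16.2-fold and 20-fold. Nrep, a neuronal regeneration protein, was at 24, 55.9 and 53.7 CPM in high glucose, with library 1 lower than the others, and at 1.59, 1.86 and 1.74 CPM in control. The cyclin-dependent kinase-like gene Cdkl1 rose by 4.39 on the log2 scale. Among falls, Serpinb9b, a serine protease inhibitor, went from 121 ± 7.47 to 13.3 ± 1.3 CPM, and Cdsn, corneodesmosin, from 104 ± 6.18 to 11.6 ± 0.189 CPM. Atp2a2 (SERCA2), the calcium pump that fills the ER, was at 1389.9, 1446 and 1425 CPM in control, against 461, 447 and 455 in high glucose (log2 fold change −1.64, adjusted p = 1.99e-07). Avil, an actin-severing villin relative, had the largest fall under the rule for named genes, a log2 fold change of −6.38, with Tsfm antisense to it. The mitochondrial tRNA gene mt-Tl2 was at 0.0314, 0.0436 and 0.0335 CPM without treatment and at 0.531, 0.808 and 0.819 CPM with high glucose (log2 fold change 4.24, adjusted p = 0.00312). Snora33, a small nucleolar RNA, was at 1.1, 0.726 and 0.453 CPM in the controls and 0.0241, 0.0394 and 0.0252 CPM under high glucose (log2 fold change −4.64, adjusted p = 0.0325), and that call was lost on leaving out any single library other than control library 3 (adjusted p 0.00097 to 0.0977 over the alternatives). The largest rises in CPM included the mitochondrial transcripts mt-Nd1 (2658 ± 71 to 4664 ± 654 CPM) and mt-Cytb (1942 ± 161 to 3369 ± 419 CPM), subunits of complexes I and III, and Scd2, a fatty acid desaturase (616 ± 8.08 to 1303 ± 80.2 CPM). The largest falls in CPM included Tpt1, a translationally controlled tumour protein (4435 ± 258 to 2511 ± 139.5 CPM), and the chaperone gene Hsp90ab1 (4133 ± 109.6 to 2975 ± 115 CPM).

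Markers of podocytes and of neighbouring kidney cells were more often higher than lower. Of 16 podocyte markers tested, 6 rose and 2 fell. The summed level of all 24 listed was 1488 to 1772 CPM without treatment and 1888 to 1957 CPM with high glucose. Synpo, synaptopodin, was at 22, 25 and 20.2 CPM in the control libraries, 73.2, 54.6 and 32.4 CPM in high glucose and 8.53, 7.75 and 5.45 CPM with AGEs, above control but spread over a wide range (log2 fold change 1.25, adjusted p = 0.00543). Nphs1, nephrin, was scattered in both groups, at 47.5, 5.67 and 12.2 CPM in control, against 4.17, 34.3 and 3.53 in high glucose, and did not pass (adjusted p = 0.699). Podxl did not pass (log2 fold change 0.10, adjusted p = 0.6). The intermediate filament gene Nes and the myosin gene Myo1e rose, at log2 fold changes of 1.43 and 1.2, and Vegfa, which podocytes send to the capillary endothelium, was at 107, 105 and 99.1 CPM without treatment and at 49.7, 48.7 and 47.7 CPM with high glucose (log2 fold change −1.09, adjusted p = 1.47e-05).

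Parietal epithelial markers rose in 4 of 9 cases and fell in 1, and their sum went from a range of 1086 to 1133 CPM to one of 1995 to 2235 CPM. Cd24a made up most of that rise, and without it the sum went from 931 ± 36.2 to 1023 ± 65.8 CPM. Cd24a was at 189, 196 and 168 CPM in control, 1147, 1001 and 1039 CPM under high glucose and 175, 173 and 234 CPM with AGEs (log2 fold change 2.53, adjusted p = 1.82e-06). Pax2, a renal developmental factor, was at 5.79, 3.41 and 4.53 CPM in the controls and 45.4, 38.2 and 36 CPM under high glucose (log2 fold change 3.12, adjusted p = 2.56e-05). Of 5 tubular markers tested, 4 rose, with the sum over all 11 listed at 203 to 216 CPM without treatment and 668 to 801 CPM with high glucose. The defining tubular genes Slc34a1, Umod and Aqp2 had 0 counts in all libraries. Aqp1, a water channel of the proximal tubule, was at 79.4, 79.1 and 90.2 CPM in control, against 414, 312 and 321 in high glucose (log2 fold change 2.07, adjusted p = 0.000251), and Lrp2, megalin, chosen after its values were seen, was at 56, 52.1 and 82.2 CPM in high glucose, against 23.8, 25.4 and 23.7 CPM in control. Endothelial markers rose in 2 of 4 cases (1 without high glucose library 3, where Flt1 lost its call at an adjusted p of 0.0586). Their sum over all 10 listed was 9.62 to 13.3 CPM in control and 18.3 to 23.9 in high glucose. Mesangial and fibroblast markers rose in 1 of 6, or 2 without control library 2 (sum of all 10 listed 37.9 to 41.0 CPM, then 53.7 to 58.5). Leukocyte markers rose in 2 of 8 and fell in 2, or 1 without control library 2 or high glucose library 1 (sum of all 10 listed 86.7 to 97.6 CPM, then 139 to 155). Ren1 was at 0 counts in all libraries. The part these markers have in the changes of junction, matrix and chemokine genes was not tested.

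Overlap between genes on opposite strands limits some of the named values, since the strand setting of the counting is not given in the sources used here. An antisense neighbour had a total count of at least 10% of the gene's own for Ddit3, Mars, Avil, Rpe, Igfbp7, Pex3, Gnl3, Gins2, Nid2, Adamts4, Mmp19, Itga7, Itgb2l, Dusp1, Dbp, Nphs1, Cdc45, Slc6a9, Aldh1l2, Adgrl1 and Yars.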

How the data were processed

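A single table was deposited by the authors, with whole-number counts of reads and FPKM values (scaled for gene length and depth) for each gene in every library, per the file headers. The submitters' processing notes name cutadapt 1.9, FastQC and GRCm38. No aligner, counter, annotation release or strand setting was given in the sources used here. The comparison used the deposited counts in edgeR 4.0.16 (R 4.3.3): filterByExpr with the groups, TMM scaling (factors 0.935 to 1.10), quasi-likelihood fit of 9 libraries with 3 group means and no covariate, two-sided tests of high glucose minus control, Benjamini-Hochberg adjustment over 17680 genes, and calls at an adjusted p under 0.05. The common biological coefficient of variation was 0.278. Levels are CPM with the TMM factors, computed from the counts. The standard error is the absolute log2 fold change divided by the square root of F. The fit was tested on simulated data.

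No 2 libraries of a group were alike within counting noise: the chi-square divided by its degrees of freedom was 47.7 to 78.3 for pairs of control or of high glucose libraries. The alternatives were DESeq2 1.42.0, limma 3.58.1 on log2(FPKM + 1) and log2(FPKM + 0.1), another scaling and other filters, glmTreat at 1.2-fold, the 6 libraries alone, a replicate block, and leaving out each library. Gene positions come from GENCODE mouse release M21 (55144 of 55385 identifiers found), promoters from RefSeq (GRCm38.p6).

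The members, the 44 gene lists and the tests were chosen with earlier results of these data known. The rule for named genes took the 12 largest rises and 12 largest falls by fold among called genes (mean FPKM of at least 5, no overlap, ordinary symbol), the 8 largest rises and 8 largest falls by CPM outside the ER stress and ribosomal protein lists, up to 2 called members per list and direction by smallest p, and a few genes always named, among them Txnip, Arrdc4, Slc2a1, Nphs1, Synpo and Podxl. A few genes that the rule names are not reported here.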

Additional observations from a re-analysis of the deposited data

How the results depend on the processing

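The 4 counts of calls stayed within 1.5 times under DESeq2, another scaling, other filters, glmTreat at 1.2-fold and the 6 libraries alone. With limma on log2(FPKM + 1), 5235 genes were higher, 748 at least 2-fold higher and 315 at least 2-fold lower. With limma on log2(FPKM + 0.1), 608 were at least 2-fold lower. The cause was not tested, although a pseudocount of 1 shrinks folds of low genes by construction. The limma fits also had no TMM scaling, whose factors differed between control and high glucose. Without 1 library, calls ran from 2906 to 3070 higher, 2831 to 3112 lower, 1306 to 1418 at least 2-fold higher and 860 to 938 at least 2-fold lower. Same-numbered control and high glucose libraries did not deviate together (correlations of −0.004, −0.014 and −0.057). None of them correlated best with its own number in the other group, so the numbers were not taken as pairs. With a replicate block, 3152 were higher and 3170 lower, 1385 and 888 at least 2-fold. Of 225 named genes called, 204 were called under every alternative that gave a value, 21 lost the call under some, and none reversed. Depth limits the low genes: of 4050 genes under 1 CPM in both groups, 4.32% were called higher and 2.44% lower.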

Other observations

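Some genes had counts in only 1 of the groups compared. Among called genes, 74 had 0 counts in all 3 control libraries and 32 had 0 in all 3 high glucose libraries. The examples were picked after seeing their values. Folds are lower bounds that take 3 counts, summed over the 3 libraries at 0, as the limit, which covers counting error only. Crispld2, a secreted protein, was at 0.885 ± 0.373 CPM in high glucose, at least 56.7-fold higher. In the other direction Ostn, a secreted muscle and bone peptide, was at 2.45 ± 0.368 CPM in control and at least 174-fold lower. Myom2, a sarcomere protein, was at 2.26 ± 0.346 CPM in control and at least 160.4-fold lower.

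Pseudogenes and small RNAs were called lower more often than higher. Of 2021 pseudogenes tested, 74 were called higher (3.66%) and 398 lower (19.7%), against 23.7% and 21.5% of 13515 protein-coding genes. Of 88 small nucleolar RNAs, 1 was higher and 11 lower, and of 40 microRNA genes, 1 and 7. How reads shared between a pseudogene and its parent gene, or a small RNA and its host gene, were counted is not given here. Its part in these calls was not tested. Long noncoding genes did not lean that way, with 184 of 1938 higher and 149 lower. The mitochondrial 12S ribosomal RNA gene mt-Rnr1 fell from 885 ± 32.1 to 192 ± 22.2 CPM, while the messages mt-Nd1 and mt-Cytb of the same genome rose. The selection used to capture RNA, on which ribosomal RNA counts depend, is not given here, and its part was not tested. By chromosome, calls on X were 13.5% higher and 20% lower of 525 genes, and those on chromosome 10 were 25.3% higher and 20.5% lower of 839.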
